A study of Saccharomyces cerevisiae S288C with 32 samples.

Results

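The genes described are 9 plasma membrane amino acid permeases of Saccharomyces cerevisiae, BAP2, BAP3, TAT1, TAT2, HIP1, CAN1, LYP1, DIP5 and AGP3, and the permease-like sensor SSY1. They were taken by name from the 6084 annotated genes of a count table, and all 10 passed the filter on low counts. The permeases known for taking up proline (GAP1, PUT4, AGP1, GNP1) were left out of the set. Messenger RNA was measured in 32 poly(A) libraries of strain S288C, in 8 groups of 4, at room temperature in YPD, a rich medium that supplies amino acids. Flowcell 1 held wild type and a strain labelled zuo1, and flowcell 2 held wild type again and a strain labelled not5. Each was treated for 45 minutes with AZC (L-azetidine-2-carboxylic acid, a proline analog that cells build into protein) at 2 mg/mL or with the same volume of sterile water, called vehicle. The labels do not say how either gene was altered. They number the libraries of each group as biological replicates but name no separate cultures, so a p-value here reflects library-to-library spread, which may be technical.

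Amino acid permeases of this family move amino acids into the cell with protons. Ssy1 sits in the plasma membrane and senses external amino acids without carrying them; with Ptr3 and the protease Ssy5 it forms the SPS sensor, which releases the transcription factors Stp1 and Stp2 by cutting them. Those factors then drive permease genes such as BAP2, BAP3, TAT1, TAT2 and DIP5. Permease protein is also removed from the membrane by the ubiquitin ligase Rsp5 and its adaptors, which mRNA levels do not report.

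Each library of flowcell 1 held 22149372 to 31481724 counts, and each of flowcell 2 held 58226659 to 97003256. ZUO1, which encodes a ribosome-bound J-domain co-chaperone, had 0 to 3 counts in the 8 zuo1 libraries and at least 14757 in every wild-type library. NOT5, whose product belongs to the Ccr4-Not deadenylase, had 0 counts in all 8 not5 libraries and 3924 to 17767 in wild type. The amino acid synthesis gene LEU2 was at 0 counts wherever the strain was wild type or zuo1 and at 1378 to 2311 in the not5 libraries, so not5 differed from its wild type at this marker too. The part of that difference in any not5 result was not tested. Ribosomal RNA made up 13.8% and 11.8% of the not5 libraries numbered 4, against at most 3.87% in any wild-type library. A level is a share of the poly(A) RNA of a whole culture, so a change in some cells and a smaller change in all cells cannot be told apart. Tail length was not measured, so levels in not5 against wild type do not separate poly(A) capture from abundance, with either scaling.

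The promoter stretches of 4 genes are shown because BAP2, BAP3 and TAT1 hold many copies of CGGC, the core bound by Stp1 and Stp2, while HIP1 fell with BAP3 and TAT1 under AZC and holds 1. Each stretch covers the bases 550 to 251 before the first coding base, read from the RefSeq R64 genome on the coding strand. Capitals mark CGGC on either strand, so GCCG is also capitalised, and overlapping matches were counted. The window was chosen after match positions were seen.
BAP2, chrII:375941-376240, minus strand: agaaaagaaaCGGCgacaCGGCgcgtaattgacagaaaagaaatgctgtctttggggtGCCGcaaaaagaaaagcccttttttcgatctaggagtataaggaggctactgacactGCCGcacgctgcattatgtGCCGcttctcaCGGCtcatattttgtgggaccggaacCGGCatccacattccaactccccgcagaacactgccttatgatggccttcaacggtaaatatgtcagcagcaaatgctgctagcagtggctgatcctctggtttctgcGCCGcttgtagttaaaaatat
BAP3, chrIV:550827-551126, minus strand: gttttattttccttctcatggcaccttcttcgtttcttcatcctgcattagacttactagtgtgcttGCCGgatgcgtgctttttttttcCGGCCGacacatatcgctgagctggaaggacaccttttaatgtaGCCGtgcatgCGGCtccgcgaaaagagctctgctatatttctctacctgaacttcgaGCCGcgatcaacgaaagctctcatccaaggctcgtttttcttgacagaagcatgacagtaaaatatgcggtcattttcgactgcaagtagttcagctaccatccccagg
TAT1, chrII:378684-378983, minus strand: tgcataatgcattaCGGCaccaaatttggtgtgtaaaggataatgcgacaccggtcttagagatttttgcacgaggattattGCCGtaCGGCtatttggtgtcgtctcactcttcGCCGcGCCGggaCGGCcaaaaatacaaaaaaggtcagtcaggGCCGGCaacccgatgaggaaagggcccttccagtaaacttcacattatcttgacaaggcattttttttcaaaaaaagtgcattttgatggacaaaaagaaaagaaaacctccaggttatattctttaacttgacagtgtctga
HIP1, chrVII:879870-880169, plus strand: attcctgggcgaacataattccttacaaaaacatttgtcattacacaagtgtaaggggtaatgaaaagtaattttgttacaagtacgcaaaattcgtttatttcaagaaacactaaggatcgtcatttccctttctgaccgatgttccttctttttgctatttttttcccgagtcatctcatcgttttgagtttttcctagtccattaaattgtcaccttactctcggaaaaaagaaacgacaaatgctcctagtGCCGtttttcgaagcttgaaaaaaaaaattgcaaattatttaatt

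BAP2 and TAT1 each held 8 matches in this window and BAP3 held 6, counts reached by 0.1% and 0.683% of 6000 promoters. DIP5 held 4, TAT2 and SSY1 held 3 each, HIP1 and CAN1 held 1 each, and LYP1 and AGP3 held 0. At least 1 match occurred in 54.9% of the 6000 promoters. CAN1 held 3 copies of GATAAG, the site of the GATA factors of nitrogen control, on both strands together, which 0.2% of promoters reach; 13.9% hold at least 1. The Gcn4 core TGACTC occurred once in HIP1 and once in CAN1, and in 8.25% of promoters. Because the window was chosen after match positions were seen, these percentages are not fair measures of how rare the counts are. The letters are a description and not binding sites.

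The genes lie on 8 chromosomes, each as 1 uninterrupted coding segment. BAP2 (YBR068C, II:373861-375690) and TAT1 (YBR069C, II:376574-378433) are neighbours on chromosome II with 883 bases between them. TAT1 overlaps an antisense RNA gene, TBRT (II:376610-378633), over 1824 bases, and the libraries do not mark strand, so reads of TAT1 and TBRT cannot be told apart and TAT1 levels are uncertain. BAP3 (YDR046C, IV:548762-550576) is the closest relative of BAP2 in the set, with 69.97% identical coding bases. TAT2 is YOL020W (XV:286172-287950), HIP1 YGR191W (VII:880420-882231), DIP5 YPL265W (XVI:41043-42869) and SSY1 YDR160W (IV:776163-778721). CAN1 (YEL063C, V:31694-33466) and LYP1 (YNL268W, XIV:138550-140385) share 68.8% of aligned coding bases. AGP3 is YFL055W (VI:17004-18680). No pair of the 10 genes shared a run of 31 bases. LYP1 shared 28 words of 31 bases with ALP1, a basic amino acid permease outside the set. Words were counted at every start position, so overlapping words count separately. A small part of LYP1 reads may have been divided between LYP1 and ALP1.

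In wild-type vehicle cultures the per-length levels, in CPM (counts scaled to library size, with TMM factors) per kb of coding sequence, ran over a 36.2-fold range on flowcell 1 and a 38.3-fold range on flowcell 2. On flowcell 1 the order by mean was BAP2 at 178 ± 16.3, BAP3 at 170 ± 8.21, LYP1 at 145 ± 15.9, TAT1 at 142 ± 9.01, HIP1 at 122 ± 11.4, CAN1 at 85.0 ± 5.26, TAT2 at 74.0 ± 3.51, DIP5 at 30.04 ± 8.52, SSY1 at 23.1 ± 0.205 and AGP3 at 4.92 ± 0.783 CPM per kb (SD, n = 4). The libraries of BAP2 and BAP3 overlapped, as did those of LYP1 and TAT1, so neither pair was separated by more than its spread. The other neighbours in this order did not overlap. Under AZC the wild type kept BAP2 first and AGP3 last, while CAN1 stood above TAT1 and HIP1 on both flowcells. In zuo1 vehicle cultures BAP3 came first, at 146 CPM per kb, with BAP2 behind TAT1 at 114; the libraries of these 3 genes overlapped with their neighbours. In not5 vehicle cultures BAP2 reached 299 CPM per kb and BAP3 220, above all others.

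**Figure D1:**
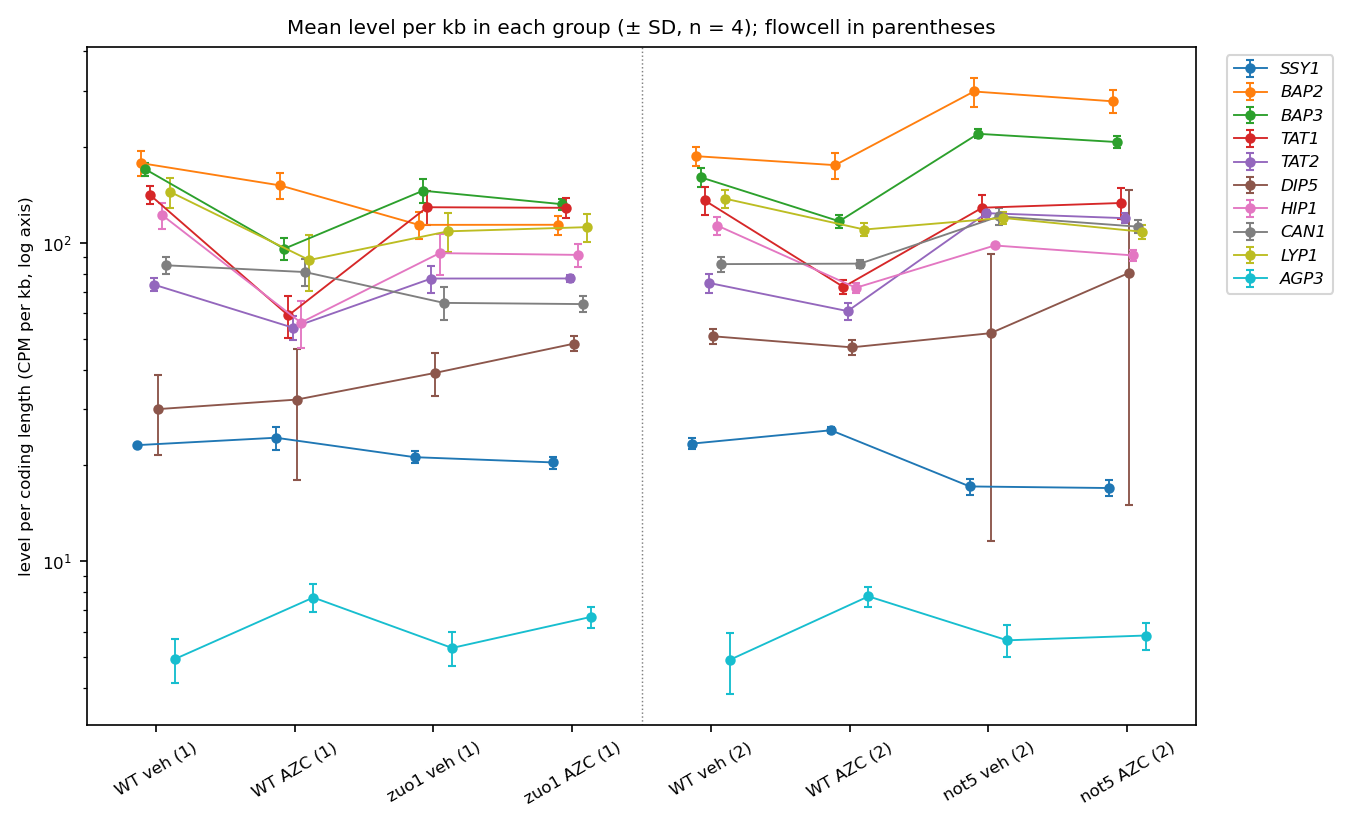
Mean level per kb of coding sequence (CPM per kb, log axis) of the 10 genes in the 8 groups, with SD over 4 libraries; lines join the groups of a flowcell. BAP2 and BAP3 lead in wild-type vehicle cultures at 178 and 170 CPM per kb on flowcell 1, and AGP3 is lowest in every group.

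AZC in wild type lowered most of the abundant permeases and raised AGP3. On flowcell 1 TAT1 fell 2.43-fold, HIP1 2.20-fold, BAP3 1.80-fold, LYP1 1.66-fold, TAT2 1.38-fold and BAP2 1.19-fold, and AGP3 rose 1.54-fold. CAN1, DIP5 and SSY1 did not pass the test. So 7 of the 10 genes were called at an adjusted p under 0.05 (6 lower, 1 higher), where 64.6% of the 5782 genes tested were called, 31.3% lower and 33.3% higher. The median log2 fold change of the 10 genes was -0.36, beside 0.02 over all genes. On flowcell 2 the same design gave 6 calls, 5 lower and 1 higher, where 65.3% of 5849 genes were called, 35.2% lower and 30.2% higher. The libraries of the groups did not overlap for 6 of the 10 genes on flowcell 1 and 7 on flowcell 2, beside 58.3% and 61.8% of all genes.

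**Figure D2:**
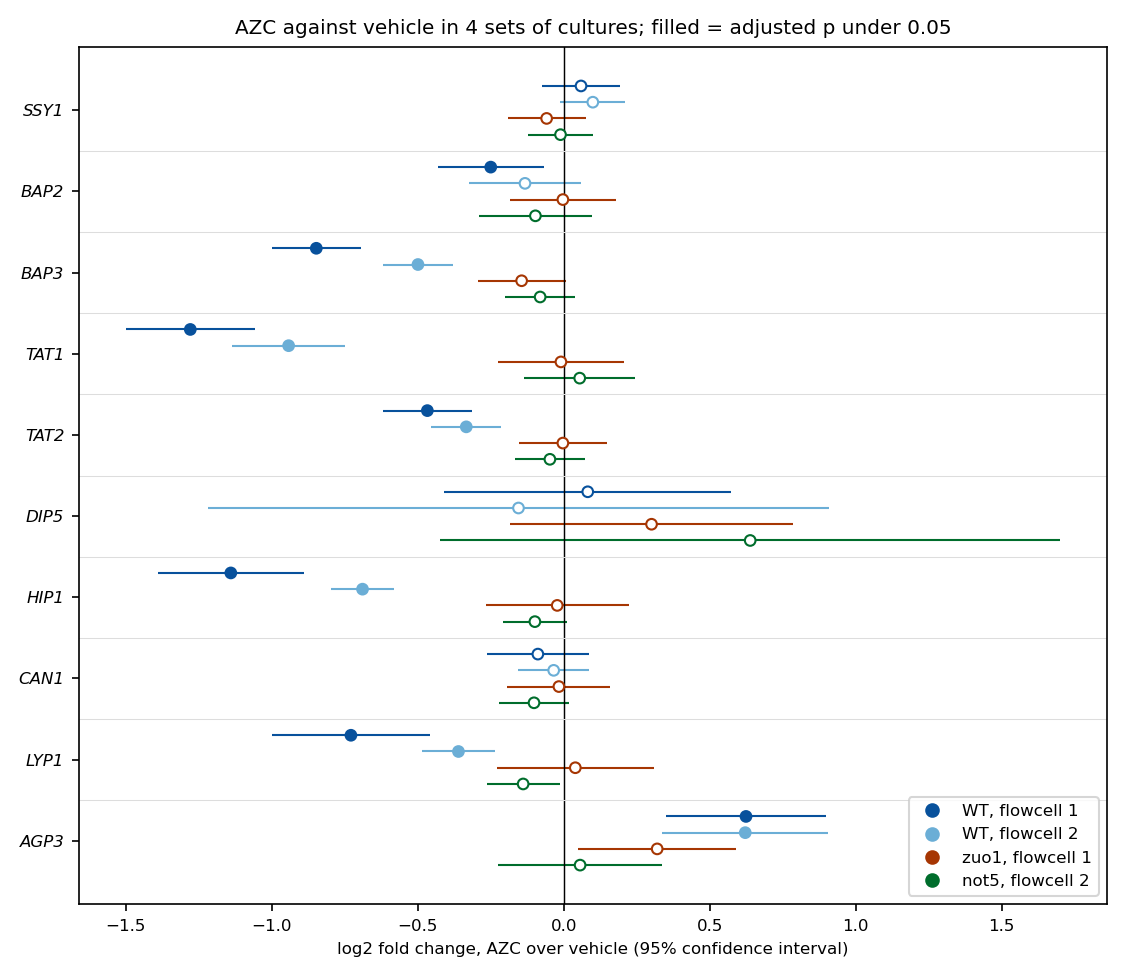
log2 fold change of AZC over vehicle with its 95% confidence interval for each gene in wild type of both flowcells, zuo1 and not5; filled points passed an adjusted p of 0.05. TAT1, HIP1, BAP3, LYP1 and TAT2 lie below 0 and AGP3 above 0 in both wild types, and no point of zuo1 or not5 is filled.

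TAT1, which carries tyrosine and branched-chain amino acids, stood at 250, 275, 281 and 249 CPM in wild-type vehicle on flowcell 1 and at 88.6, 128, 108 and 115 CPM under AZC. All AZC libraries were below all vehicle libraries, with a log2 fold change of -1.28 ± 0.11 (SE) and an adjusted p of 5.44e-09. On flowcell 2 vehicle gave 234, 231, 285 and 261 CPM and AZC 144, 126, 136 and 135 CPM, again without overlap (log2 fold change -0.94 ± 0.09, adjusted p = 2.65e-07). The antisense record TBRT went from a mean of 199 to 84.7 CPM on flowcell 1 and from 211 to 123 on flowcell 2. Reads from the bases that TAT1 and TBRT share cannot be told apart, so TBRT is not an independent measurement. With TAT1 and TBRT counts added together the log2 fold changes were -1.27 ± 0.09 and -0.89 ± 0.08, which does not show which RNA fell.

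HIP1, the high-affinity histidine permease, stood at 194, 217, 236 and 239 CPM in flowcell 1 vehicle libraries and at 81.1, 94.6, 113 and 118 CPM under AZC. The log2 fold change was -1.14 ± 0.12 (adjusted p = 1.57e-07), with no overlap. On flowcell 2 HIP1 went from 194, 197, 224 and 207 CPM to 137, 130, 126 and 131 CPM, also without overlap (log2 fold change -0.69 ± 0.05, adjusted p = 2.03e-08).

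BAP2 and BAP3 both carry branched-chain amino acids. BAP3 stood at 299, 326, 317 and 295 CPM in flowcell 1 vehicle and at 159, 173, 171 and 192 CPM under AZC (log2 fold change -0.85 ± 0.07, adjusted p = 8.75e-09). On flowcell 2 it went from 288.2, 283, 321 and 275 to 220, 215, 198 and 216 CPM (-0.50 ± 0.06, adjusted p = 1.54e-06), and on neither flowcell did the groups overlap. BAP2 stood at 297, 306, 338 and 362 CPM in flowcell 1 vehicle and at 250, 263, 291 and 305 CPM under AZC, with overlapping groups. Its log2 fold change of -0.25 ± 0.09 passed with an adjusted p of 0.0167 and was lost without vehicle replicate 4 or AZC replicate 1 (adjusted p 0.0594 to 0.0623). On flowcell 2 BAP2 did not pass, at -0.13 with a 95% interval of -0.33 to 0.06; with the replicate number as a block within each strain, a fit added after the data were seen, it passed as lower (-0.14 ± 0.04, adjusted p = 0.00459). A difference between BAP2 and BAP3 in response was not tested.

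TAT2, the high-affinity tryptophan permease, went from 129, 124, 138 and 135 CPM to 86.7, 94.6, 98.2 and 106 CPM on flowcell 1 (log2 fold change -0.47 ± 0.07, adjusted p = 1.87e-05). On flowcell 2 it went from 130, 127, 147 and 129 to 118, 101, 106 and 110 CPM (-0.33 ± 0.06, adjusted p = 8.08e-05). All AZC libraries were below all vehicle libraries on both flowcells. LYP1, the lysine permease, went from 244, 237, 286 and 295 to 132, 136, 185 and 195 CPM on flowcell 1 (-0.73 ± 0.13, adjusted p = 8.27e-05). On flowcell 2 LYP1 went from 253, 237, 276 and 245 to 213, 196, 207 and 194 CPM (-0.36 ± 0.06, adjusted p = 6.33e-05), and the groups did not overlap on either. CAN1, the arginine permease, stood at 141, 145, 156 and 161 CPM in flowcell 1 vehicle and at 133, 137, 164 and 140 CPM under AZC. These overlapped, and its log2 fold changes were -0.09 (95% interval -0.26 to 0.09) and -0.03 (-0.16 to 0.09) on flowcells 1 and 2.

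AGP3, a low-affinity permease of broad range, was the gene of the set that rose. It stood at 9.89, 6.86, 8.64 and 7.61 CPM in flowcell 1 vehicle and at 14.3, 12.8, 13.3 and 11.2 CPM under AZC, without overlap (log2 fold change 0.62 ± 0.13, adjusted p = 0.000388). On flowcell 2 it went from 8.41, 10.4, 5.97 and 8.08 to 12.4, 13.7, 11.96 and 13.9 CPM (0.62 ± 0.13, adjusted p = 0.000728). SSY1, the sensor, stood at 58.6, 59.2, 59.4 and 59.8 CPM in flowcell 1 vehicle and at 64.04, 59.3, 69.2 and 57.5 CPM under AZC, and did not pass (0.06, 95% interval -0.07 to 0.19). On flowcell 2 it went from 61.7, 62.0, 57.0 and 58.8 CPM to 64.03, 66.2, 67.4 and 66.2 CPM, without overlap. The difference of 0.10 ± 0.05 did not pass (adjusted p = 0.108); it passed at 0.14 with all 32 libraries, without ribosomal RNA records or without the not5 libraries numbered 4 (adjusted p 0.0240 to 0.0362), and at 0.10 ± 0.04 with the block within each strain (adjusted p = 0.0430). DIP5, the glutamate and aspartate permease, did not pass either: 0.08 (-0.41 to 0.57) on flowcell 1 and -0.16 (-1.22 to 0.91) on flowcell 2. The wide second interval comes from a fit that shares 1 spread with the not5 libraries, among which DIP5 varied strongly.

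The wild type of both flowcells was also fitted together. In vehicle 0 of the 10 genes differed between flowcells, where edgeR called 12.3% of genes. DIP5, 1 of the 10, had an unadjusted p under 0.05, as did 1707 of all 5808 genes tested. DIP5 was at 46.8, 44.0, 50.9 and 77.9 CPM on flowcell 1 and at 99.1, 92.4, 94.2 and 86.2 on flowcell 2, without overlap, as for 20.1% of all genes, and its adjusted p was 0.0542. None of the other 9 genes was apart. It passed with DESeq2 (adjusted p = 0.0254), limma-voom, library totals, the replicate block, or without wild-type vehicle replicate 4, AZC replicate 3 or AZC replicate 4 of flowcell 1 (adjusted p 0.00250 to 0.0459). The difference of AZC responses between flowcells was called for 0 of the 10 genes and 1.31% of all genes. HIP1 (0.49 ± 0.14, adjusted p = 0.0693) and BAP3 (0.39 ± 0.10, adjusted p = 0.0513) were nearest. An unadjusted p under 0.05 was found for 4 of the 10, and for 1125 of all 5808 genes tested. DESeq2 called both HIP1 and BAP3, among 356 genes in all. The edgeR calls over all genes split 47 higher to 29 lower, and 23 to 30 with library totals.

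**Figure D3:**
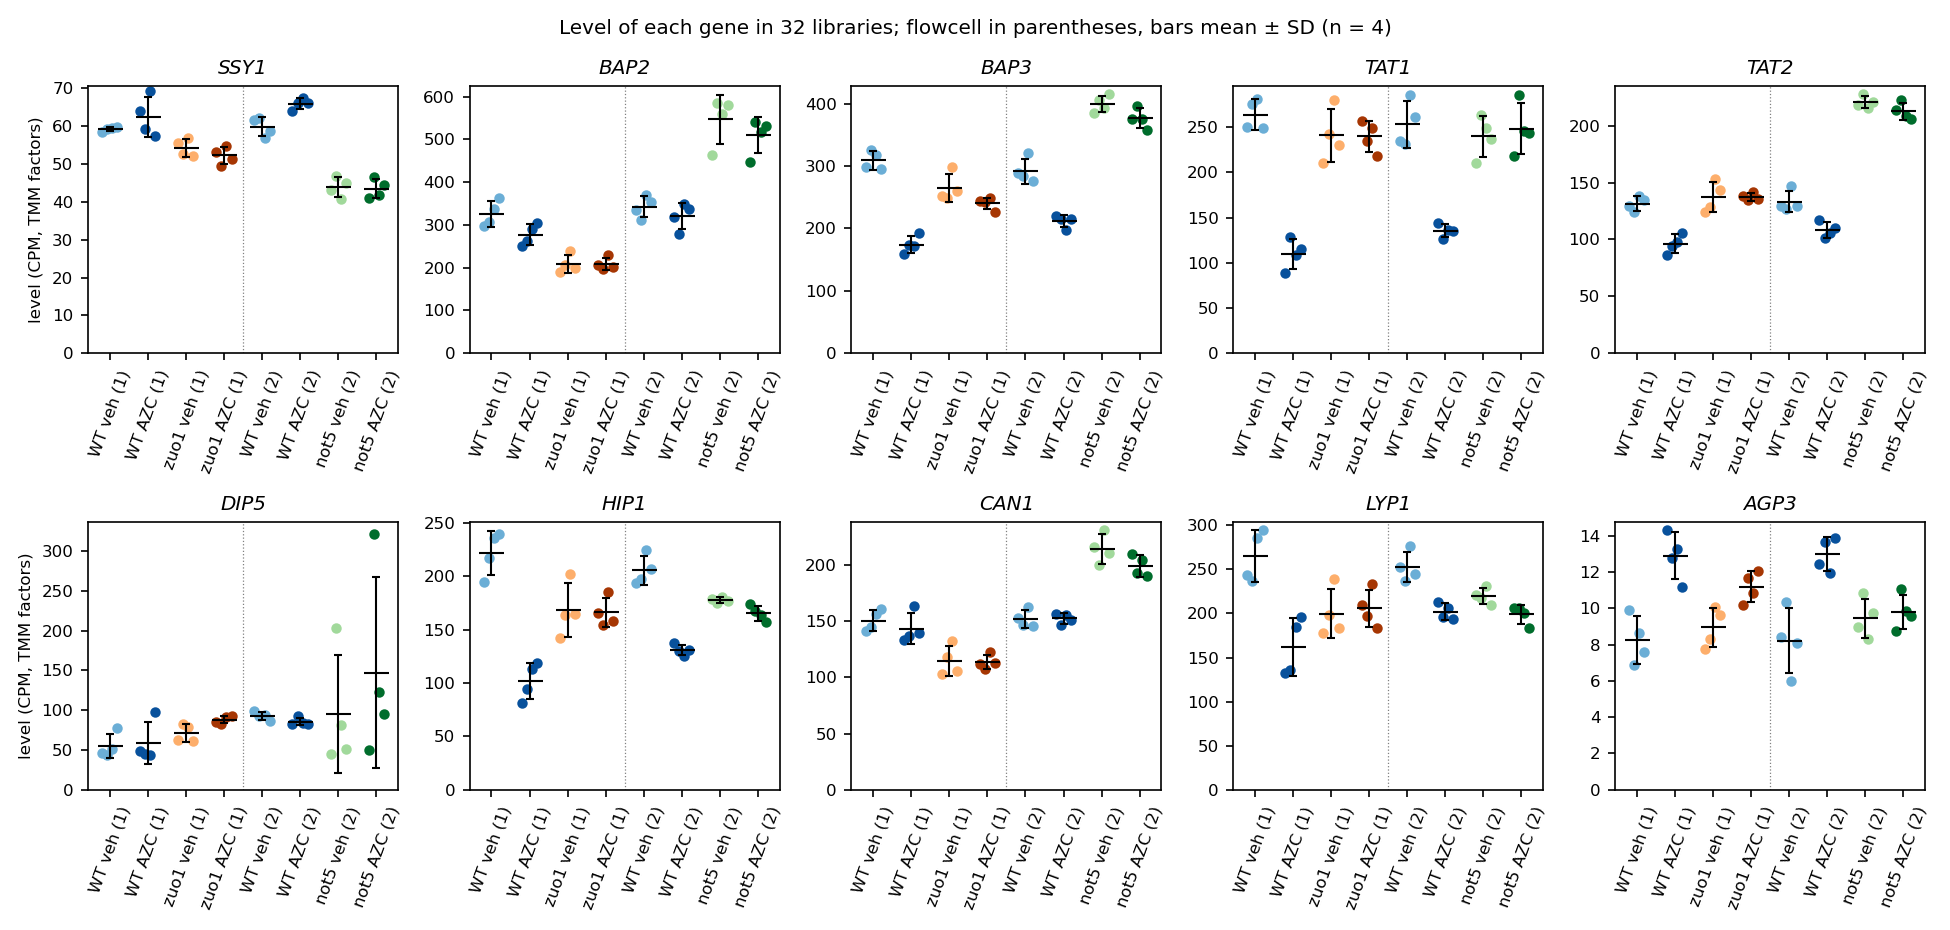
Level (CPM, TMM factors) of each gene in all 32 libraries, grouped by strain, treatment and flowcell; points are libraries and bars the mean with SD, n = 4. TAT1, HIP1, BAP3, LYP1 and TAT2 are lower under AZC in wild type on both flowcells. AZC and vehicle libraries also stand apart for BAP3, DIP5 and AGP3 in zuo1 and for HIP1 and LYP1 in not5, none of them called.

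In zuo1, edgeR called 0 of the 10 genes for AZC, where 2.77% of genes were called. AGP3, 1 of the 10, had an unadjusted p under 0.05, as did 698 of all 5782 genes tested. DESeq2 and limma-voom also called 0 of the 10, and 218 and 158 of all genes. The edgeR calls over all genes split 130 higher to 30 lower, and 98 to 42 with library totals. The AZC and vehicle libraries did not overlap for 3 of the 10, BAP3 (-0.14, 95% interval -0.29 to 0.01), DIP5 (0.30, -0.18 to 0.79) and AGP3, beside 7.0% of all genes. BAP3 stood at 252, 249, 299 and 259 CPM in zuo1 vehicle and at 243, 242, 248 and 227 CPM under AZC. TAT1 stood at 210, 242, 280 and 230 CPM in zuo1 vehicle and at 257, 235, 249 and 218 CPM under AZC (log2 fold change -0.01, 95% interval -0.23 to 0.21). HIP1 stood at 142, 163, 202 and 165 CPM and at 166, 155, 186 and 158 CPM (-0.02, -0.27 to 0.22). These intervals do not reach the wild-type changes of -1.28 and -1.14. AGP3 stood at 7.76, 8.31, 10.1 and 9.64 CPM and at 10.2, 11.7, 10.8 and 12.1 CPM, with a log2 fold change of 0.32 ± 0.13 (adjusted p = 0.286).

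Tested directly, the AZC response of zuo1 was higher than that of wild type for 5 of the 10 genes and lower for 0, where 50.1% of genes were called and 23.4% were higher. The differences of log2 responses were 1.27 ± 0.15 for TAT1 (adjusted p = 1.16e-06), 1.12 ± 0.17 for HIP1 (2.35e-05), 0.77 ± 0.18 for LYP1 (0.00190), 0.70 ± 0.10 for BAP3 (1.54e-05) and 0.46 ± 0.10 for TAT2 (0.00104). These are the 5 genes with the steepest falls in wild type, and the wild-type libraries enter both numbers. AGP3 did not pass (-0.30, 95% interval -0.69 to 0.08), nor did BAP2 (0.25, -0.01 to 0.50). BAP2 passed with the replicate block (adjusted p = 0.0330) or without zuo1 vehicle replicate 3 (0.37, adjusted p = 0.0201), and DIP5 passed without wild-type AZC replicate 4 (0.57, adjusted p = 0.0387). The block within each strain called BAP2 as well (0.25, adjusted p = 0.0162).

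Without AZC, zuo1 had less of several permeases than wild type. BAP2 stood at 191, 205, 238 and 200 CPM, below all 4 wild-type vehicle libraries, and was 1.56-fold lower (log2 fold change -0.64 ± 0.09, adjusted p = 8.36e-06). LYP1 (-0.40 ± 0.13), HIP1 (-0.39 ± 0.12), CAN1 (-0.39 ± 0.08) and BAP3 (-0.22 ± 0.07) also passed, so 5 of 10 genes were lower and 0 higher. Over all genes 59.3% were called and 29.1% were lower. CAN1 stood at 103, 118, 133 and 105 CPM in zuo1, below all wild-type libraries. The groups did not overlap for 3 of the 10 genes, beside 53.4% of all genes. Scaling by library totals in place of TMM moved the median of all genes from 0.01 to 0.25 and the calls from 1743 higher and 1685 lower to 2892 higher and 789 lower. With those totals BAP2 remained lower (-0.39), HIP1 (-0.15), CAN1 (-0.14) and LYP1 (-0.16) lost the call, BAP3 went to 0.03, and TAT2 (0.31), DIP5 (0.63) and AGP3 (0.37) passed as higher. With TAT1 and TBRT counts added, TAT1 passed as lower (-0.21 ± 0.08, adjusted p = 0.0403); alone it did not (-0.13 ± 0.10). DIP5 passed as higher without wild-type vehicle or AZC replicate 4 (adjusted p 0.0304 to 0.0330).

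Under AZC, 9 of the 10 genes differed between zuo1 and wild type, 6 higher and 3 lower, where 69.3% of genes were called, 34.0% higher and 35.4% lower. The groups did not overlap for 7 of the 10, beside 60.5% of all genes. The higher ones were TAT1 (2.21-fold, adjusted p = 2.50e-08), HIP1 (1.66-fold), DIP5 (1.52-fold), TAT2 (1.45-fold), BAP3 (1.40-fold) and LYP1 (1.29-fold). The lower ones were BAP2 (1.31-fold), CAN1 (1.24-fold) and SSY1 (1.18-fold), and all 3 lost the call with library totals, which moved the median of all genes from -0.01 to 0.17 and gave 2575 higher and 1458 lower calls in place of 1964 and 2044. DIP5 stood at 84.9, 83.3, 91.2 and 93.3 CPM in zuo1 under AZC and at 49.2, 44.5, 44.0 and 97.4 CPM in wild type, where replicate 4 stood above all zuo1 libraries. LYP1 (adjusted p = 0.0181) lost the call without wild-type AZC replicate 1 or 2 or zuo1 AZC replicate 3. DIP5 (adjusted p = 0.0282) lost it with all 32 libraries (0.59, adjusted p = 0.222) and without any of 5 single libraries: wild-type AZC replicates 1, 2 and 3 and zuo1 AZC replicates 3 and 4.

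In not5, edgeR called 0 of the 10 genes for AZC, where 0.0% of genes were called; 62 genes in all and 1 of the 10, LYP1, had an unadjusted p under 0.05. TAT1 stood at 210, 264, 249 and 236 CPM in not5 vehicle and at 218, 286, 246 and 244 CPM under AZC (0.05, 95% interval -0.14 to 0.25). HIP1 stood at 179, 175, 181 and 177 CPM and at 174, 167, 164 and 157 CPM (-0.10, -0.21 to 0.01). LYP1 stood at 221, 218, 231 and 210 CPM and at 206, 207, 200 and 184 CPM (-0.14, -0.26 to -0.01, adjusted p = 0.999). All AZC libraries of HIP1 and LYP1 were below all vehicle libraries, so 2 of the 10 did not overlap, beside 0.839% of all genes. Same-numbered vehicle and AZC libraries of not5 varied together, with correlations of 0.189 to 0.815. With the block within each strain 76 genes were called in not5, and of the 10 only DIP5 (0.59 ± 0.10, adjusted p = 0.0190). DESeq2 called 1 gene in not5 and limma-voom 0.

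DIP5 differed more between not5 numbers than between treatments. It stood at 44.8, 203, 81.4 and 50.7 CPM in not5 vehicle libraries 1 to 4 and at 49.6, 321, 122 and 95.9 CPM under AZC. The number 2 libraries were highest in both groups, and within each number the AZC library was the higher one. The coefficient of variation was 77.8% and 81.3% in these groups, against 5.71% and 5.62% in the wild type of the same flowcell. Without both libraries numbered 2, DIP5 was lower in not5 than in wild type in vehicle (-0.69 ± 0.26, adjusted p = 0.0267); with them it was not called (log2 fold change -0.0030, 95% interval -1.06 to 1.06).

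**Figure D4:**
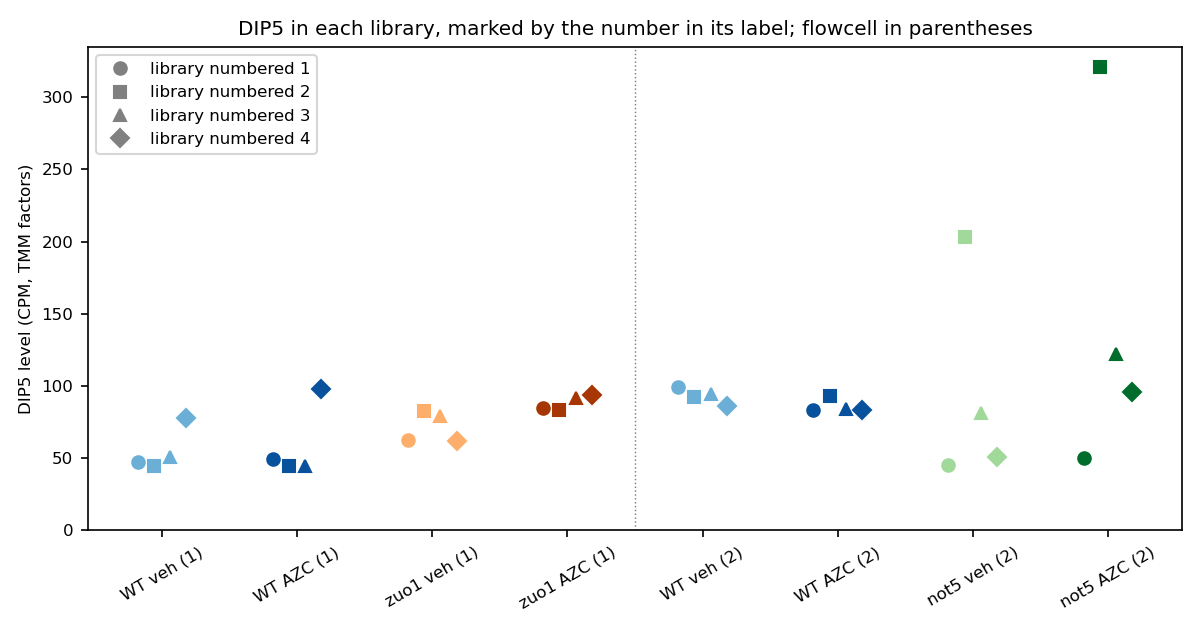
DIP5 level (CPM, TMM factors) in every library, with the marker shape giving the number in the library's label. The not5 libraries numbered 2 stand at 203 CPM in vehicle and 321 CPM under AZC, above all others.

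Tested directly, the AZC response of not5 differed from that of wild type for 6 of the 10 genes, 5 higher and 1 lower, where 49.2% of genes were called, 26.5% higher and 22.7% lower. The differences of log2 responses were 1.00 ± 0.13 for TAT1 (adjusted p = 1.56e-05), 0.59 ± 0.07 for HIP1 (1.16e-05), 0.42 ± 0.08 for BAP3 (0.000522), 0.29 ± 0.08 for TAT2 (0.00725), 0.22 ± 0.08 for LYP1 (0.0379) and -0.57 ± 0.19 for AGP3 (0.0209). LYP1 lost the call without any of 9 single libraries (adjusted p 0.0556 to 0.0782) and under 6 other settings (adjusted p 0.0506 to 0.348). AGP3 lost it with library totals (-0.55, adjusted p = 0.0610). DIP5, not called here, passed with the block within each strain (0.74 ± 0.14, adjusted p = 0.000550). AGP3 stood at 8.95, 10.8, 8.31 and 9.73 CPM in not5 vehicle and at 8.74, 11.04, 9.83 and 9.55 CPM under AZC, overlapping throughout.

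Without AZC, not5 had more TAT2, BAP2, CAN1 and BAP3 than wild type. TAT2 stood at 218, 228, 216 and 221 CPM (log2 fold change 0.70 ± 0.06, adjusted p = 9.46e-09) and BAP2 at 463, 585, 560 and 581 CPM (0.64 ± 0.09, adjusted p = 6.78e-06). CAN1 stood at 217, 200, 232 and 210 CPM (0.47 ± 0.06) and BAP3 at 385, 405, 393 and 415 CPM (0.42 ± 0.06). All 4 lay above every wild-type vehicle library of flowcell 2, and each was higher with TMM and with library totals. SSY1 stood at 43.1, 46.8, 40.9 and 44.8 CPM, below all wild-type libraries. It was lower with TMM (-0.48 ± 0.05, adjusted p = 3.67e-07) and 0.04 and not called with library totals. HIP1 (-0.24 ± 0.05) and LYP1 (-0.23 ± 0.06) were lower with TMM but higher, at 0.29 and 0.30, with library totals. With all 32 libraries fitted together under TMM, LYP1 lost the call (-0.20, adjusted p = 0.0804). AGP3 (0.17) and TAT1 (-0.11) were not called with TMM and were higher, at 0.68 and 0.42, with library totals. AGP3 also passed as higher without wild-type vehicle replicate 2 (0.30, adjusted p = 0.0354).

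In that comparison 7 of the 10 genes were called, 4 higher and 3 lower, where 82.1% of genes were called, 41.2% higher and 40.9% lower. The groups did not overlap for 7 of the 10, beside 76.7% of all genes. Library totals moved the median of all genes from 0.00 to 0.53 and the calls from 2412 higher and 2391 lower to 3656 and 1141. Under AZC 8 of the 10 differed, 6 higher and 2 lower, where 79.3% of genes were called, 40.7% higher and 38.7% lower, and 8 of the 10 did not overlap, beside 73.1% of all genes. Higher were TAT2 (1.98-fold), TAT1 (1.85-fold), BAP3 (1.79-fold), BAP2 (1.60-fold), CAN1 (1.32-fold) and HIP1 (1.27-fold), each also higher with library totals. Lower were SSY1 (1.51-fold) and AGP3 (1.32-fold), which with library totals were -0.06 and 0.13 and not called, while LYP1 (0.52) and DIP5 (1.33) passed as higher. There library totals moved the all-gene median from 0.02 to 0.55 and the calls from 2379 and 2262 to 3777 and 929, higher and lower.

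**Figure D5:**
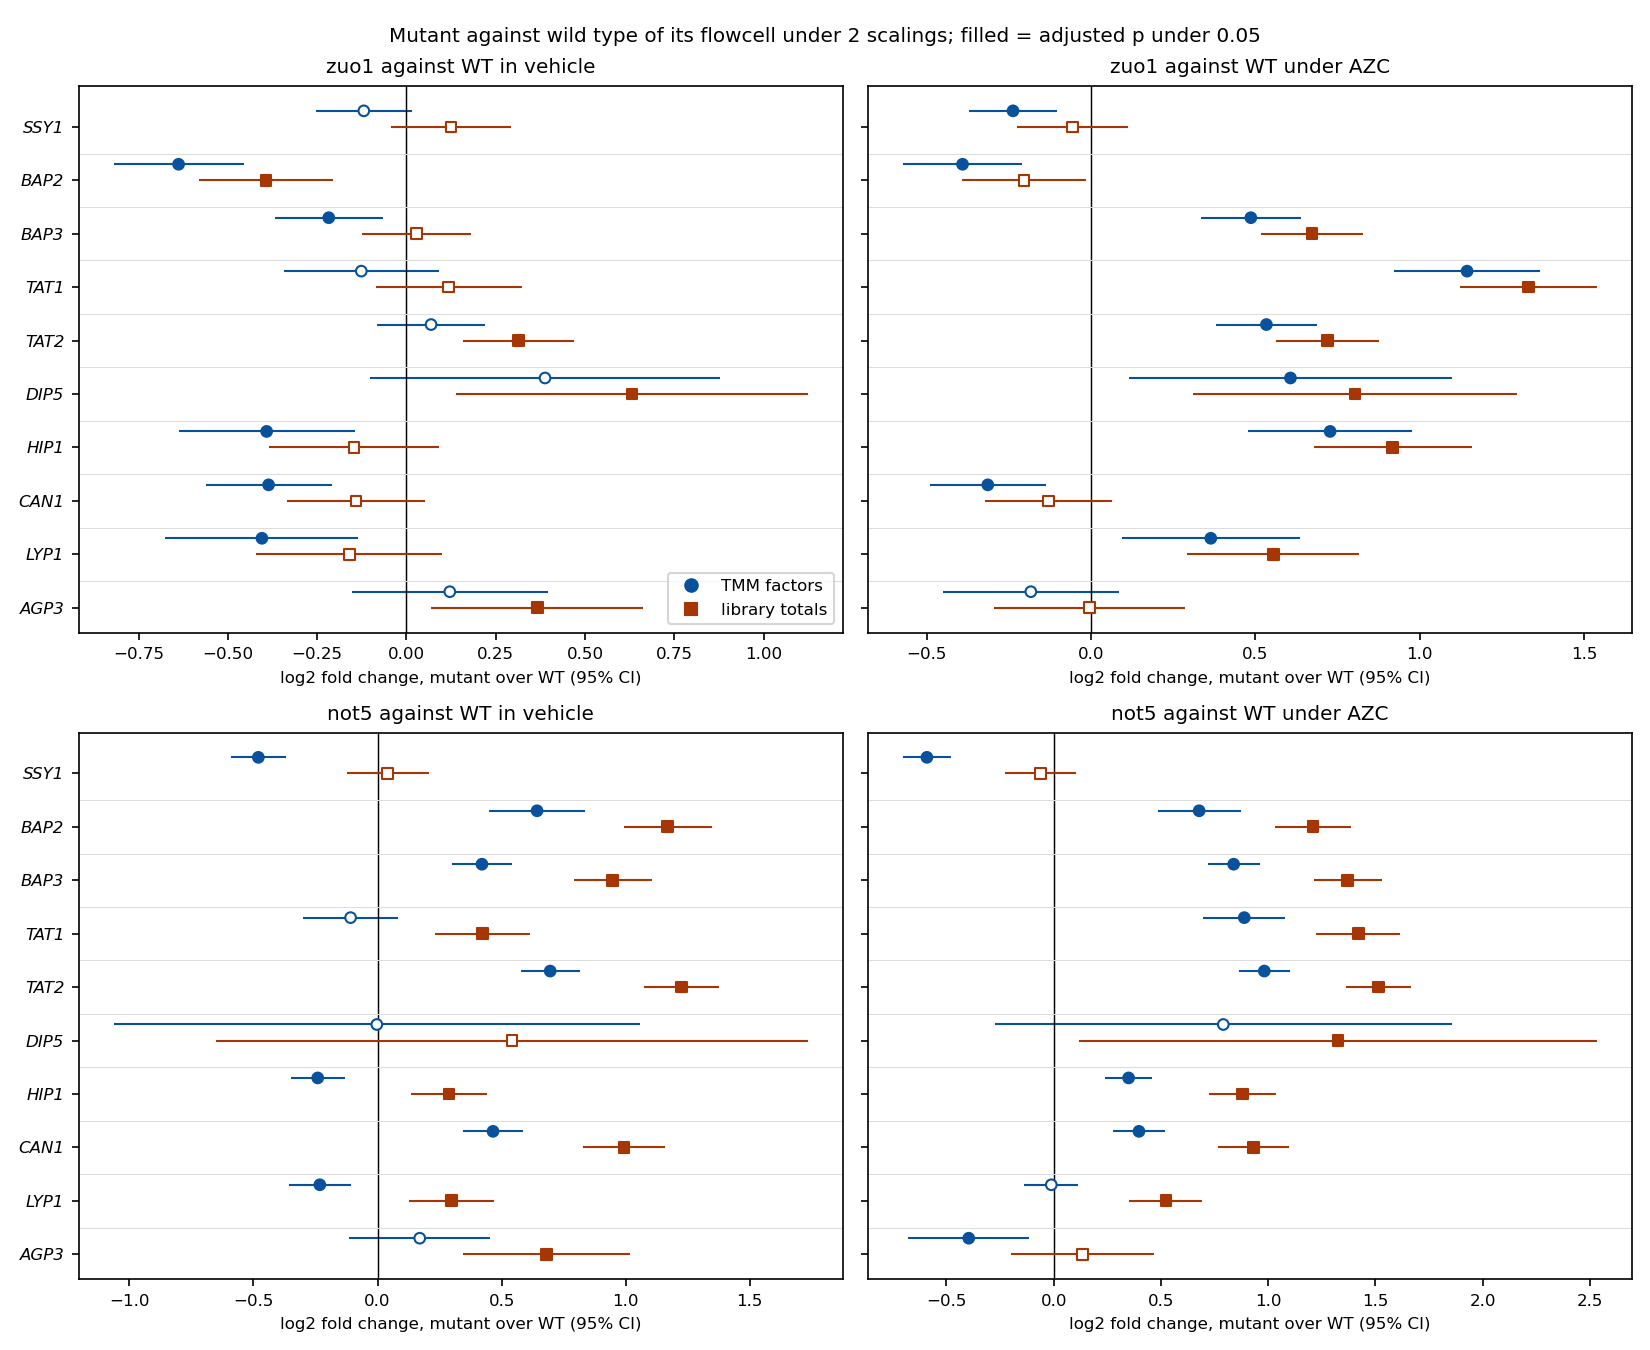
log2 fold change of each mutant over the wild type of its flowcell, in vehicle and under AZC, with TMM factors (circles) and library totals (squares) and 95% confidence intervals; filled points passed an adjusted p of 0.05. Library totals lie to the right of TMM throughout, and in not5 vehicle HIP1 and LYP1 change sign, from -0.24 and -0.23 to 0.29 and 0.30.

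The genes of the SPS pathway were read beside the permeases. In wild type under AZC 7 of 11 rose and 3 fell on flowcell 1, and 6 rose and 2 fell on flowcell 2. Of all genes 33.3% were called higher and 31.3% lower on flowcell 1, and 30.2% and 35.2% on flowcell 2. ASI3, part of the inner nuclear membrane complex that keeps uncut Stp1 and Stp2 from acting, rose by 2.16 ± 0.19 and 0.83 ± 0.07 on the log2 scale on flowcells 1 and 2. Its partners ASI2 (0.79 and 0.55) and ASI1 (0.36 and 0.36) rose as well, as did GRR1 (0.63 and 0.46), an F-box protein needed for Ssy5 activation. STP2 (0.53 and 0.32) and STP1 (0.28 and 0.14) rose on both. DAL81, a partner of Stp1 and Stp2 at permease genes, fell by 0.41 and 0.25. The casein kinase gene YCK1 fell by 0.27 and 0.13. Its paralog YCK2 fell by 0.22 on flowcell 1 and was at -0.11 and not called on flowcell 2. SSY5 rose by 0.29 on flowcell 1 and was 0.04 and not called on flowcell 2, and PTR3 was not called on either (0.09 and 0.10). In zuo1 and in not5, 0 of the 11 were called under AZC, with 2.77% and 0.0% of all genes called, as given above.

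Against wild type in vehicle, not5 had 7 of the 11 SPS genes higher and 3 lower with TMM, beside 41.2% and 40.9% of all genes. With library totals 9 were higher and 0 lower, beside 62.5% and 19.5%. STP2 (1.17 ± 0.07) and STP1 (0.75 ± 0.04) were higher under both scalings, and YCK2 was lower at -0.68 ± 0.06 with TMM and at -0.15, not called, with library totals. In zuo1 3 were higher and 3 lower with TMM, beside 30.1% and 29.1% of all genes, and 6 and 2 with library totals, beside 50.0% and 13.6%. YCK1 (-0.57 ± 0.07) and ASI1 (-0.44 ± 0.07) were lower and ASI3 (0.44 ± 0.18) higher under both. Of the 4 proline permeases, GNP1 (-0.64 and -0.49) and AGP1 (-0.48 and -0.43) fell under AZC in wild type of flowcells 1 and 2, GAP1 rose (0.60 and 0.50) and PUT4 was not called (0.23 and 0.07). In not5 vehicle all 4 were higher, where 41.2% of all genes were, PUT4 by 3.70 ± 0.30, GAP1 by 2.15 ± 0.18, AGP1 by 0.96 ± 0.08 and GNP1 by 0.50 ± 0.07. Of the 4, zuo1, where 59.3% of all genes were called, had PUT4 higher (1.01 ± 0.20) and AGP1 (-0.31 ± 0.09) and GNP1 (-0.22 ± 0.08) lower with TMM; with library totals AGP1 (-0.07) and GNP1 (0.02) were not called. The 4 higher calls in not5 and PUT4 in zuo1 were made under both scalings.

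Of 12 other transporters of amino acids and related compounds, 6 fell and 2 rose under AZC in wild type on each flowcell. Their median log2 fold change was -0.34 and -0.26 on flowcells 1 and 2. Of all genes 31.3% were called lower and 33.3% higher on flowcell 1, and 35.2% and 30.2% on flowcell 2. SAM3 (-1.87 and -1.16) and MMP1 (-1.55 and -0.81), permeases of S-adenosylmethionine and S-methylmethionine, and the peptide transporter OPT1 (-1.48 and -0.91) fell. Of 16 genes for Rsp5, its adaptors and related factors, 12 rose and 1 fell on flowcell 1 and 9 rose and 2 fell on flowcell 2. The shares of all genes given for the transporters apply to these counts too. The adaptor ECM21 rose by 1.80 ± 0.08 and 1.40 ± 0.08, the kinase NPR1 by 0.98 and 0.74 and the adaptor ROD1 by 0.95 and 0.76, while BUL2 fell by 0.29 and 0.24. RSP5 itself was not called (0.17 and -0.02).

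The other lists moved in both directions. Of 12 genes for permease export and sorting, 1 rose and 4 fell on flowcell 1 and 2 rose and 6 fell on flowcell 2. LST8 rose by 3.85 ± 0.13 and 3.19 ± 0.13, and LTV1 fell by 1.60 and 1.35. Of 12 genes that signal amino acids to TORC1, 7 rose and 1 fell, then 5 rose and 1 fell, with TIP41 at 0.94 and 0.40. Of 15 tested vacuolar transporter genes 7 rose and 4 fell, then 6 rose and 5 fell, with AVT6 at 1.04 and 0.78 and YPQ1 at -0.88 and -0.69. Of 14 transcription regulators 6 rose and 5 fell, then 5 and 5; GCN4, the activator of amino acid synthesis, fell by 0.83 and 0.60, and GAT1 rose by 0.82 and 0.45. All of these counts stand beside 64.6% and 65.3% of all genes called.

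The pattern over the 8 group means, as log2 CPM less the mean of the flowcell, was most alike within the set for CAN1 and BAP2 (Pearson r = 0.99), and for HIP1 with TAT1 and with LYP1 (0.93 each). SSY1 ran opposite to TAT2 (-0.97), and AGP3 opposite to HIP1 (-0.90). Each value is a deviation from the mean of its flowcell, so the 8 points are not independent and these r values are descriptions. Among 5047 genes the closest to TAT1 were SHQ1, RPC37 and BRE2, to HIP1 RPS8A, CAF120 and PRS3, and to BAP3 STU2, HKR1 and PDR5, all with r of at least 0.99. DIP5 had no gene as close, with 0.84 for NTG2. Codons for proline, the amino acid AZC replaces, made up 3.05 to 4.30% of the 10 genes, beside a median of 4.17% over all protein-coding genes.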

How the data were processed

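The authors deposited 1 table of expected counts per gene. The submitters' processing notes name Salmon 1.10.2, FastQC 0.12.1 and build R64. Fractional values, 79.1% of the table, were rounded to whole numbers. Of 6085 records 6084 matched a RefSeq R64 gene; the unmatched one held at most 0.0179% of a library and was dropped. The library kit was unstranded, per the labels.

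The quasi-likelihood F test of edgeR 4.0.16 (R 4.3.3; robust fit, filterByExpr, TMM factors) was run on the 16 libraries of each flowcell with a group term alone. P-values were adjusted by the Benjamini-Hochberg method over all genes, with a threshold of 0.05. Wild type of both flowcells was fitted likewise. Each fit was checked on simulated counts in which few genes were changed, in random directions. That check does not bear on the choice between TMM factors and library totals. A positive log2 fold change means higher under AZC or in the mutant, and its error is the SE. CPM values use TMM factors over all 32 libraries. Reads carry no molecular identifiers, so precision covers counting and library spread together. Alternatives were library totals, RLE factors, DESeq2 1.42.0, limma-voom (limma 3.58.1), no low-count filter, no ribosomal RNA records, all 32 libraries together, a replicate block and each library left out.

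Labels do not say that equal numbers pair libraries. Same-numbered libraries deviated together, with every correlation over 0.1, for not5 vehicle with not5 AZC (0.189 to 0.815) and for wild type with zuo1 in vehicle (0.126 to 0.276), and not in the other 6 pairs of groups. Members and gene lists were chosen with earlier results of these data known. All 10 members were named; of each list, its largest called changes and all SPS and proline permease genes, and for each member its 3 closest genes, given here for TAT1, HIP1 and BAP3.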

Additional observations from a re-analysis of the deposited data

Results flagged for a closer look

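In 3 of 80 groups of 4 libraries, 1 library stood far from the other 3 by Dixon's criterion; chance alone flags about 1 in 20 groups. TAT2 was at 147 CPM in wild-type vehicle replicate 3 of flowcell 2, above the rest. DIP5 was at 97.4 CPM in wild-type AZC replicate 4 of flowcell 1 and at 93.0 CPM in wild-type AZC replicate 2 of flowcell 2.

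The AZC response differed between a mutant and the wild type of its flowcell, by the interaction test, for 11 combinations of gene and mutant. These were 5 of the 10 genes in zuo1 and 6 of the 10 in not5. Of all genes, 50.1% were called in the zuo1 test and 49.2% in the not5 test, so the counts lie near the all-gene shares. In zuo1 the difference of log2 responses was 1.27 for TAT1, 1.12 for HIP1, 0.77 for LYP1, 0.70 for BAP3 and 0.46 for TAT2. In not5 it was 1.00 for TAT1, 0.59 for HIP1, 0.42 for BAP3, 0.29 for TAT2, 0.22 for LYP1 and -0.57 for AGP3.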

How the results depend on the processing

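Of 1230 log2 fold changes of the 10 genes under other settings, 1151 kept their direction and their side of the threshold. Sign changed in 35, of which 28 passed the threshold in neither fit; the cause was not tested. With library totals the values were 0.028 for BAP3, 0.12 for TAT1 and 0.13 for SSY1 (zuo1 vehicle), 0.42 for TAT1, 0.29 for HIP1, 0.30 for LYP1, 0.54 for DIP5 and 0.041 for SSY1 (not5 vehicle), 0.52 for LYP1 and 0.13 for AGP3 (not5 under AZC), -0.0030 for LYP1 (AZC in zuo1) and -0.046 for AGP3 (wild-type response between flowcells). For AZC in zuo1, BAP2, TAT1 and TAT2 gave 0.012, 0.0049 and 0.012 with RLE factors and again with DESeq2. There BAP2 and TAT2 gave 7.7e-05 and 0.0014 with limma-voom and 0.0010 and 0.00060 with all 32 libraries, and TAT1 gave 0.041 with TBRT added. Without ribosomal RNA, without both not5 libraries numbered 4 and with all 32 libraries, CAN1 gave 0.011, 0.010 and 0.0051 (AZC in wild type, flowcell 2), DIP5 0.036, 0.24 and 0.032 (not5 vehicle), and BAP2 -0.023, -0.013 and -0.0089 (not5 response minus wild type). LYP1 in not5 under AZC gave 0.0097 without the libraries numbered 4.

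With the replicate block TAT2 gave 0.0018 for AZC in zuo1, and 0.0015 with the block within genotype, added after the data were seen. The block called 1 of the 10 between wild-type flowcells in vehicle (DIP5) and 2 in the wild-type response difference (BAP3 and HIP1). Of all 5808 genes it called 865 and 172 there, against 714 and 76 without the block. The block added BAP2 to the zuo1 response difference, where all-gene calls went from 2897 to 3282. It changed no other call of the 10 genes. Within genotype it called 1 for AZC in not5 and 4 in the wild-type response difference. Of all genes 76 of 5849 and 498 of 5808 were called there, against 0 and 76 without the block. BAP2 (lower) and SSY1 (higher) were gained for AZC in wild type of flowcell 2, where all-gene calls went from 3822 to 4417. BAP2 was gained in the zuo1 response difference, where all-gene calls went from 2897 to 3363. DIP5 was gained in the not5 response difference, where all-gene calls went from 2879 to 3801. Library totals, DESeq2 and limma-voom each called 1 between wild-type flowcells in vehicle, beside 538, 1031 and 663 of all 5808 genes. DESeq2 called 2 in the wild-type response difference, beside 356 of all genes.

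Leaving out 1 library at a time changed the sign of 54 of 1920 values, none of which passed the threshold in either fit. The ranges were -0.27 to 0.29 for DIP5 (AZC in wild type, flowcell 1), and for AZC in zuo1 -0.029 to 0.098 (BAP2), -0.049 to 0.10 (TAT1), -0.026 to 0.085 (TAT2), -0.073 to 0.11 (HIP1), -0.056 to 0.090 (CAN1) and -0.0033 to 0.17 (LYP1). They were -0.018 to 0.092 for TAT2 in zuo1 vehicle and -0.057 to 0.00064 for CAN1 (AZC in wild type, flowcell 2). For AZC in not5 they were -0.020 to 0.11 (TAT1), -0.084 to 1.32 (DIP5), -0.045 to 0.019 (SSY1) and -0.0075 to 0.12 (AGP3), with -0.69 to 0.23 for DIP5 in not5 vehicle, -0.033 to 0.030 for LYP1 in not5 under AZC and -0.035 to 0.092 for BAP2 in the not5 response difference. Between wild-type flowcells they were -0.011 to 0.092 (BAP2), -0.066 to 0.0081 (TAT2), -0.059 to 0.0096 (CAN1), -0.040 to 0.0066 (SSY1) and -0.18 to 0.085 (AGP3) in vehicle, and -0.42 to 0.16 (DIP5) and -0.091 to 0.16 (AGP3) in response. Called genes numbered 0 to 1 between wild-type flowcells in vehicle and 0 to 3 in response. In response BAP3 passed without any of 4 libraries, HIP1 without either of 2 and LYP1 without wild-type AZC replicate 4 of flowcell 1. With no library left out, 714 and 76 of all 5808 genes were called in vehicle and in response. The all-gene counts with 1 library left out are not given here, so these gained calls cannot be set beside them.

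Library totals moved 52 of 80 group levels by more than their SD. AGP3 had the lowest counts of the 10 genes.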
